A study of Mus musculus with 18 samples.

Results

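The 44 genes described here drive or mark the cell division cycle, and they are read across 18 mouse mammary tumors by bulk RNA sequencing. They were taken by gene symbol from the 55450 genes of the tables and sorted into 10 genes that control entry into S phase (G1/S), 12 genes of DNA replication and nucleotide supply, and 22 genes of G2 and mitosis. All 44 passed the filter on low counts that left 18475 genes for testing. Each tumor arose in a different mouse, per the series design, although 1 pair of libraries was nearly alike, as described below. Of the 18 tumors, 14 are labelled Cbfb(het), 1 Cbfb(homo) and 3 Cbfb(wt). Every genotype label, also that of the Cbfb(wt) tumors, carries the MMTV-Cre(+) transgene and 1 Pikca(H1047R, het) allele, which is the labels' spelling of Pik3ca with an activating change of the kinase. The MMTV promoter drives Cre recombinase mainly in mammary epithelium, so the engineered alleles were aimed at those cells and not at the stroma of a tumor. Which part of Cbfb was altered is not given in the labels, and they name no age, litter or batch. Cbfb encodes the partner that stabilizes RUNX transcription factors on DNA. The comparison of interest is that of Cbfb genotypes among Pik3ca-mutant tumors.

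A cell commits to division when D cyclins with Cdk4 or Cdk6, and then E cyclins with Cdk2, inactivate the retinoblastoma family and release E2F factors, which switch on the replication genes. Cdc6 and Cdt1 load the MCM helicase at origins. Later, cyclin A and B with Cdk1, and the factors Foxm1 and Mybl2, bring on the genes of chromosome segregation. The RNA of mitotic genes is made chiefly in G2, under promoters that hold a CCAAT box and a cell cycle genes homology region (CHR) bound by the DREAM and MuvB complexes, whereas E2F motifs mark the earlier genes. In mammary tumors these genes are read together as a proliferation signature. In bulk RNA, fewer cycling cells and less RNA per cycling cell cannot be told apart.

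Total depth was 33210207 to 40974130 rounded expected counts per tumor. Levels within a gene are given as log2 CPM (counts relative to library size, scaled between tumors), and levels of different genes are compared only in TPM, a measure that also allows for gene length. Epithelial marker levels differed between tumors. Epcam, the epithelial adhesion gene, was under 7 log2 CPM in 5 tumors, namely Cbfb(het) 1, 10, 12 and 14 at 6.32, 4.84, 6.80 and 4.88, and Cbfb(wt) 2 at 2.45. It was 8.38 to 9.51 in the other tumors. The 4 basal genes Krt5, Krt14, Krt17 and Trp63 summed to 220, 10055.5, 257 and 10494.7 TPM in Cbfb(het) 1, 10, 12 and 14. In Cbfb(wt) 2 they summed to 1295 TPM, and in the rest to 926 to 22397. Tumors low in Epcam were thus not all low in basal genes. The summed TPM of 7 fibroblast genes was 20741, 15819 and 20842 in Cbfb(het) 10, 12 and 14 and 7763 in Cbfb(wt) 2, against 115.2 to 3183 in the rest. The libraries of Cbfb(het) 10 and 14 were nearly alike, with a chi-square of 4.18 per gene where the next closest of 153 pairs of libraries had 85.9. They differed by more than counting noise, which 2 libraries of 1 tumor would also do. Whether they come from 1 tumor cannot be told from these data, so the number of independent Cbfb(het) tumors may be 13. They were kept as labelled, and results are also given with them merged. Cbfb RNA was 4.49, 5.68 and 7.0 log2 CPM in Cbfb(het) tumors, 4.20 in the Cbfb(homo) tumor and 5.87, 4.25 and 5.27 in Cbfb(wt) tumors (lowest, median and highest of the 14 Cbfb(het) tumors, then the single Cbfb(homo) tumor, then Cbfb(wt) tumors 1, 2 and 3, an order kept below). The Cbfb(homo) tumor was the lowest of the 18, and the level did not separate Cbfb(het) from Cbfb(wt) tumors (log2 fold change 0.61 ± 0.43, SE, edgeR adjusted p = 0.999). That fold change was 1.03 without Cbfb(wt) 1, 0.28 without Cbfb(wt) 2 and -0.02 without the 5 tumors low in Epcam. A loss of single exons would not be seen in counts summed over a gene. The genes that results turn on lie, in GRCm38, at chr7:135689784-135716361 (Mki67), chr6:127125162-127152193 (Ccnd2), chr16:15623897-15637400 (Mcm4) and chr19:37376403-37421859 (Kif11), and all 4 are protein-coding.

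The promoter letters of these genes differ by phase, and a few promoters are shown to make that visible. RefSeq promoter windows of GRCm38.p6, from 250 bases before to 50 bases after a gene's start, were at hand for 35 of the 44 genes. Aurkb, Ccna2, Ccnd1, Ccnd2, Ccne2, Cdc25c, Foxm1, Mcm4 and Tpx2 had no entry. Each window is printed 5′ to 3′ on the gene's own strand, with every match in capitals: the CHR letters TTTGAA or TTCGAA, the CCAAT box, and the E2F core in any of 4 spellings. These spellings were TTCCCGC as the first, TTGGCGC as the second, TTCGCGC as the third and TTGCCGC as the last. All motifs were searched on both strands. Ccnb2 (cyclin B2, chr9:70421505-70421804, minus strand), Cdk1 (the mitotic kinase, chr10:69352863-69353162, minus strand) and Top2a (the topoisomerase that untangles chromosomes, chr11:99024140-99024439, minus strand) stand for G2 and mitosis. Mcm6 (a helicase subunit, chr1:128359656-128359955, minus strand) stands for replication, and Cdk6 (a partner of the D cyclins, chr5:3343643-3343942, plus strand) for G1/S control.
Ccnb2: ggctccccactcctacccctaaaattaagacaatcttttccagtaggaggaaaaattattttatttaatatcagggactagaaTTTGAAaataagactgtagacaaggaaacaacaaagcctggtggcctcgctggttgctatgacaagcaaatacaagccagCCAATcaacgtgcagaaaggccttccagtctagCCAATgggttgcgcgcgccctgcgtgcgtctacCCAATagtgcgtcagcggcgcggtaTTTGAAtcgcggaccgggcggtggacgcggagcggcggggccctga
Cdk1: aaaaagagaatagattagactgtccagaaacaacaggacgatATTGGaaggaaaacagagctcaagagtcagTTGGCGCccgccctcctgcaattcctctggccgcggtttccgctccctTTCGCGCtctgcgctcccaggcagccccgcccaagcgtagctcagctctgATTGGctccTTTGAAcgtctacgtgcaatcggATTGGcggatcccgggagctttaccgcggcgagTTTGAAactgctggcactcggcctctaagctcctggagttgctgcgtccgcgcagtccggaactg
Top2a: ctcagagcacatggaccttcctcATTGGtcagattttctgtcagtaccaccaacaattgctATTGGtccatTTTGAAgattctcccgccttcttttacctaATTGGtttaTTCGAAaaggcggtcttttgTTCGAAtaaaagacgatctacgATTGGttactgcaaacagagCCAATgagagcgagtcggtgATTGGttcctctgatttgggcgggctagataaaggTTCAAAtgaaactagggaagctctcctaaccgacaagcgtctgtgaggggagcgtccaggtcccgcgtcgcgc
Mcm6: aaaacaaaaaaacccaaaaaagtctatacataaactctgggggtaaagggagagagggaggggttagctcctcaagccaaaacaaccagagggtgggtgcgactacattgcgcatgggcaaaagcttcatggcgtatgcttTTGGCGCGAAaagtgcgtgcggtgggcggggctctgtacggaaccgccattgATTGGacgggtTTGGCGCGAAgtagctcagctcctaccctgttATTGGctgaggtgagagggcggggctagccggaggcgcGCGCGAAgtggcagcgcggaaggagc
Cdk6: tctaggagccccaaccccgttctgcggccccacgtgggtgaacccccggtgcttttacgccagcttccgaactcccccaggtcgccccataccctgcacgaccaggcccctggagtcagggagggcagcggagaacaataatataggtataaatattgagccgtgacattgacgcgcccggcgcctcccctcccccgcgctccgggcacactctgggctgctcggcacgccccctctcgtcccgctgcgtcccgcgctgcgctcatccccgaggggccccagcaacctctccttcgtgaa
The Ccnb2 window holds 2 CHR and 3 CCAAT matches and no E2F match, and 1 of its CHR matches begins at base 5 after the start. Cdk1 holds 2 CHR, 3 CCAAT and 2 E2F matches. Top2a holds 4 CHR and 6 CCAAT matches. Mcm6 holds 5 E2F and 2 CCAAT matches and no CHR, and in 2 places its E2F matches on opposite strands overlap each other. Cdk6 holds none of these letters in its window. The GENCODE M21 start of Cdk6, at 3341485, lies upstream of this window and was not searched. Other members share this limit, such as E2f1 (start at 154569892), Mcm7 (138172422) and Cdc6 (98907801). E2f1 held none of these letters in its window. No match of one motif overlapped a match of another in the 5 windows. Some of the windows shown are extremes of their phase. Of the members with a window, Top2a held the most CHR matches and Mcm6 the most E2F matches. Other G1/S genes held letters that Cdk6 lacks, such as Cdk2 with 3 E2F matches and 1 CCAAT match.

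Across the 3 phases, a CHR match occurred in the windows of 13 of 17 G2 and mitosis genes (76.5%), 2 of 11 replication genes (18.2%) and 1 of 7 G1/S genes (14.3%), and in 21.7% of the 27025 genes in the promoter table. The CCAAT box occurred in 15 of 17 (88.2%), 8 of 11 (72.7%) and 3 of 7 (42.9%), against 41.1% of all genes. All 13 mitosis genes with a CHR also held a CCAAT box, a combination present in 8.61% of all genes. The E2F core ran the other way, with 8 of 11 replication genes (72.7%), 2 of 7 G1/S genes (28.6%), 3 of 17 mitosis genes (17.6%) and 10.9% of all genes. Mitosis genes without a CHR match in this window were Ccnb1, Mybl2, Birc5 and Cenpe. A gene with several starts was counted once if any of its windows held the letters. Starts outside the windows, such as those of Cdk6 and E2f1 named above, did not enter these shares. These are matches of letters and not measured binding.

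The 3 phases differed in how far tumors lay apart. The mean level of the 22 G2 and mitosis genes ran from 4.25 log2 CPM in Cbfb(het) 14 through a median of 5.16 to 5.87 in Cbfb(het) 1, was 4.01 in the Cbfb(homo) tumor, and stood at 5.21, 5.59 and 5.22 in the Cbfb(wt) tumors. For the 12 replication genes it was 5.16 (Cbfb(het) 14), 5.64 and 6.16 (Cbfb(het) 7) in Cbfb(het) tumors, 4.73 in the Cbfb(homo) tumor and 5.69, 6.18 and 5.86 in Cbfb(wt) tumors. The 10 G1/S genes spanned 5.12 (Cbfb(het) 4), 5.40 and 6.05 (Cbfb(het) 1) in Cbfb(het) tumors, 5.08 in the Cbfb(homo) tumor and 5.59, 5.31 and 5.28 in Cbfb(wt) tumors. The Cbfb(homo) tumor was thus the lowest of the 18 in all 3 phases, and the Cbfb(wt) tumors lay inside the Cbfb(het) range in each phase except for Cbfb(wt) 2 in replication. Cbfb(het) 10, 11 and 14 were low in mitosis genes, at 4.35, 4.53 and 4.25. Of these, Cbfb(het) 10 and 14 were above the Cbfb(het) median in G1/S genes, at 5.57 and 5.56. The difference between the mitosis and replication means was narrowest in Cbfb(het) 1 (-0.13) and widest in Cbfb(het) 14 (-0.91). The standard deviation of a gene over the 18 tumors had a median of 0.60 on the log2 scale for mitosis genes, 0.42 for replication genes and 0.43 for G1/S genes, beside 0.62 for all genes tested.

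**Figure D1:**
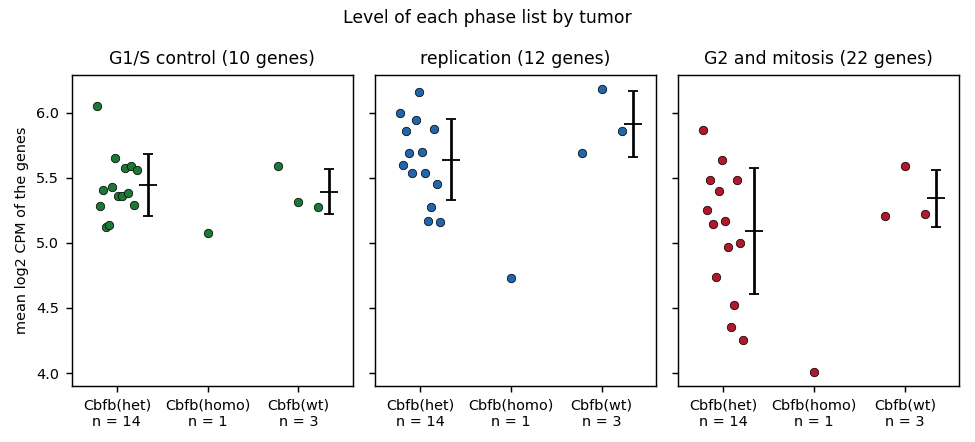
Mean log2 CPM of the genes of each phase (y axis) in 14 Cbfb(het), 1 Cbfb(homo) and 3 Cbfb(wt) tumors; each point is 1 tumor, and the bars give the mean and SD of a group. The Cbfb(homo) tumor is the lowest point in all 3 panels, and the G2 and mitosis panel has the widest spread, from 4.01 to 5.87.

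Counted gene by gene, Cbfb(het) 7 lay above the gene's own median over the 18 tumors for 40 of 44 genes, Cbfb(het) 6 for 39, Cbfb(wt) 2 for 38 and Cbfb(het) 1 for 37. At the other end were the Cbfb(homo) tumor with 2 of 44, Cbfb(het) 11 with 4, and Cbfb(het) 5, 10 and 14 with 7 each. The highest value of the 18 was held by Cbfb(het) 1 in 19 genes, by Cbfb(wt) 2 in 11 and by Cbfb(het) 7 in 9. Over all genes tested, these 3 tumors were highest in 11.2%, 10.2% and 3.62%. Both ends thus held tumors with low Epcam (Cbfb(het) 1 and Cbfb(wt) 2 high, Cbfb(het) 10 and 14 low) and tumors with high Epcam (Cbfb(het) 6 and 7 high, Cbfb(het) 11 and the Cbfb(homo) tumor low).

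**Figure D2:**
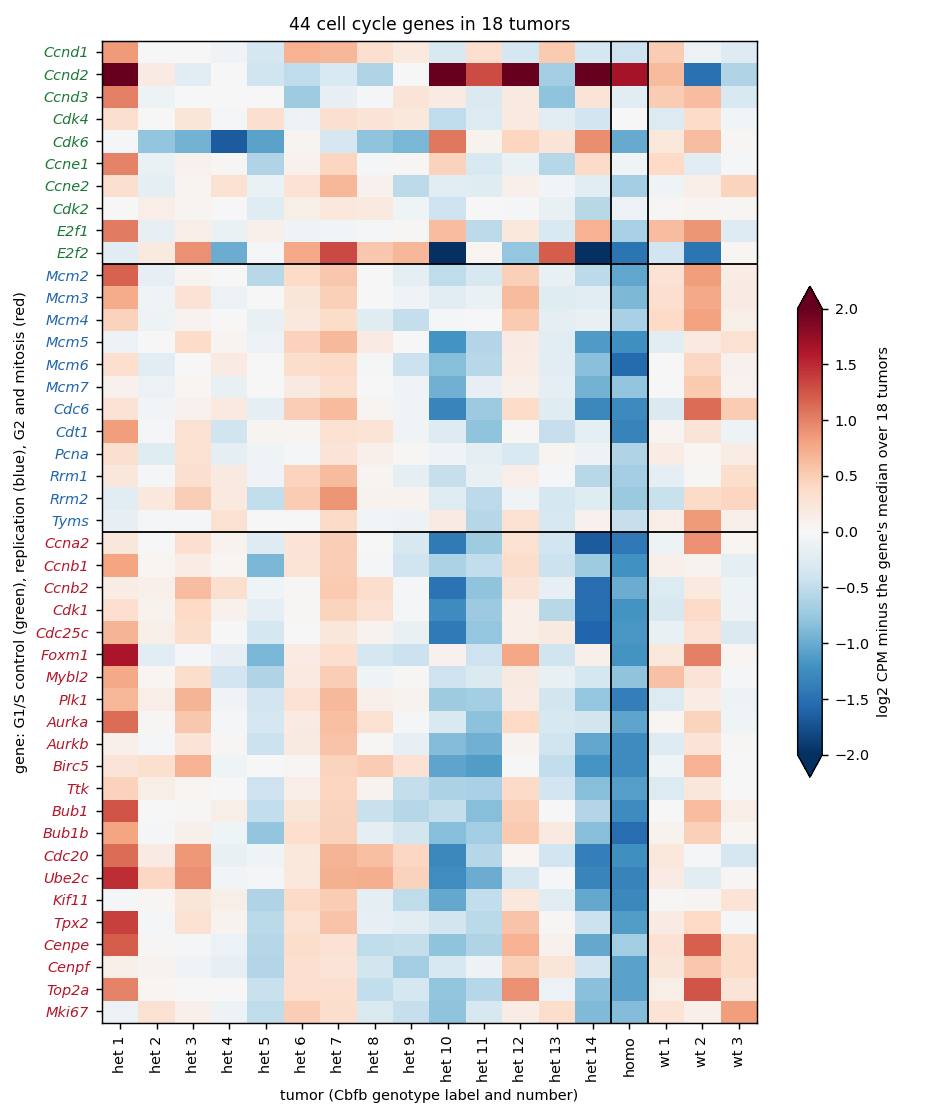
Level of each of the 44 genes (rows, grouped by phase) in each of the 18 tumors (columns, by Cbfb genotype label) as log2 CPM minus the gene's median over the 18 tumors. Most rows of the Cbfb(homo) column are blue, as are the mitosis rows of Cbfb(het) 10, 11 and 14, while Ccnd2 and E2f2 follow patterns of their own.

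The D cyclins, which start the cycle in response to growth signals, differed in which gene supplied the RNA. Ccnd1, the cyclin D1 gene, was 74.6, 96.3 and 186 TPM in Cbfb(het) tumors, 81.2 in the Cbfb(homo) tumor and 161, 105 and 89.1 in Cbfb(wt) tumors. Ccnd2, the cyclin D2 gene, was 3.30, 9.77 and 76.4 TPM in Cbfb(het) tumors, 27.2 in the Cbfb(homo) tumor and 15.0, 3.75 and 5.62 in Cbfb(wt) tumors, and Ccnd3, the cyclin D3 gene, was 41.2, 66.5 and 145 TPM in Cbfb(het) tumors, 66.6 in the Cbfb(homo) tumor and 109, 124 and 62.4 in Cbfb(wt) tumors. The ranges overlapped between genotypes for all 3. Together they summed to 124 to 378 TPM in Cbfb(het) tumors, 175 in the Cbfb(homo) tumor and 157 to 285 in Cbfb(wt) tumors. Ccnd2 made up 32.1%, 31.0%, 20.2% and 12.2% of that sum in Cbfb(het) 10, 14, 12 and 1, the 4 Cbfb(het) tumors low in Epcam. Its share was 15.5% in the Cbfb(homo) tumor, where Epcam was high, and 2.51% to 10.9% in the other 10 Cbfb(het) tumors. In Cbfb(wt) tumors 1, 2 and 3 it was 5.27%, 1.61% and 3.58%, and the lowest of these belonged to Cbfb(wt) 2, itself low in Epcam. Ccnd2 is also expressed in stromal and immune cells, and their part in these shares was not tested. Ccnd1 supplied most of the sum in Cbfb(het) 6 and 13, at 77.6% and 75.2%, and least in Cbfb(het) 14, at 33.2%.

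**Figure D3:**
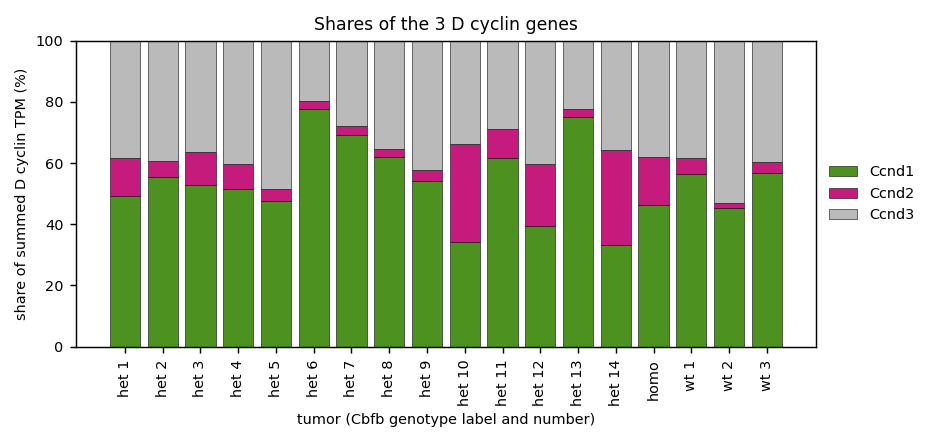
Share of Ccnd1, Ccnd2 and Ccnd3 in the summed TPM of the 3 D cyclin genes (y axis, percent) in each tumor (x axis, by Cbfb genotype label). The Ccnd2 share is largest in Cbfb(het) 10 and 14, at 32.1% and 31.0%, and smallest in Cbfb(wt) 2, at 1.61%.

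Of the kinases that pair with D cyclins, Cdk4 stood far above Cdk6 in every tumor. Cdk4 was 231, 298 and 443 TPM in Cbfb(het) tumors, 352 in the Cbfb(homo) tumor and 287, 463 and 304 in Cbfb(wt) tumors, and Cdk6 was 1.93, 7.37 and 16.8 TPM in Cbfb(het) tumors, 4.01 in the Cbfb(homo) tumor and 9.85, 14.5 and 9.23 in Cbfb(wt) tumors. Cdk6 supplied 0.788% to 6.78% of the pair in Cbfb(het) tumors, with the highest shares in Cbfb(het) 10 and 14 (6.78% and 5.98%). The share was 1.13% in the Cbfb(homo) tumor and 2.94% to 3.32% in Cbfb(wt) tumors. Cdk2, the kinase of the E cyclins, was the steadiest of the 44 genes, with a standard deviation of 0.20 over the 18 tumors and levels of 4.72, 5.28 and 5.50 log2 CPM in Cbfb(het) tumors, 5.17 in the Cbfb(homo) tumor and 5.31, 5.35 and 5.32 in Cbfb(wt) tumors. The E cyclin genes were low. Ccne1 was 5.28, 8.59 and 18 TPM in Cbfb(het) tumors, 9.03 in the Cbfb(homo) tumor and 12.8, 8.68 and 9.23 in Cbfb(wt) tumors, and Ccne2 was 3.55, 6.14 and 9.70 TPM in Cbfb(het) tumors, 5.23 in the Cbfb(homo) tumor and 6.59, 9.34 and 9.99 in Cbfb(wt) tumors. The E cyclin ranges overlapped between genotypes, and the Cdk4 and Cdk6 ranges did too.

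The E2F activators differed in pattern. E2f1, which turns on replication genes, was 3.67, 4.19 and 5.23 log2 CPM in Cbfb(het) tumors, 3.54 in the Cbfb(homo) tumor and 4.81, 5.08 and 3.94 in Cbfb(wt) tumors. E2f2, an activator of the same class, was 2.22, 4.47 and 5.69 log2 CPM in Cbfb(het) tumors, 2.90 in the Cbfb(homo) tumor and 3.98, 2.91 and 4.40 in Cbfb(wt) tumors, so that it spanned 3.46 on the log2 scale where E2f1 spanned 1.68. Cbfb(het) 10 and 14 had the lowest E2f2 levels of all tumors (2.22 and 2.28) together with E2f1 levels above the median (4.82 and 4.89). E2f1 supplied 33.1% (Cbfb(het) 13) to 91.7% (Cbfb(het) 14) of the summed TPM of both genes in Cbfb(het) tumors, 73.7% in the Cbfb(homo) tumor and 75.1%, 89.0% and 56.4% in Cbfb(wt) tumors. The 4 tumors with the highest share after Cbfb(het) 14 were Cbfb(het) 10 (91.6%), Cbfb(wt) 2, Cbfb(het) 1 (78.3%) and Cbfb(wt) 1, of which the first 3 were low in Epcam.

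The replicative helicase is a ring of Mcm2 to Mcm7, and the RNA of its 6 subunits stayed within 1.77 to 3.54 times of each other in Cbfb(het) tumors, 3.33 times in the Cbfb(homo) tumor and 1.79 to 2.39 times in Cbfb(wt) tumors, in TPM. Mcm2 was the lowest subunit in 12 tumors and Mcm4 in 6. The summed TPM of the 6 was 138 (Cbfb(het) 14), 214 and 339.9 (Cbfb(het) 12) in Cbfb(het) tumors, 118 in the Cbfb(homo) tumor and 260.3, 349.5 and 252 in Cbfb(wt) tumors, where the Cbfb(homo) tumor was lowest of all. The subunits did not keep 1 ratio. Mcm4 made up 16.8% and 15.4% of the sum in Cbfb(het) 10 and 14, against 8.26% to 13.5% elsewhere. Mcm5 was lowest in share in Cbfb(het) 10, at 12.2%, and highest in Cbfb(het) 3, at 20.6%. On the scaled counts, Mcm4 was 5.33, 5.79 and 6.33 log2 CPM in Cbfb(het) tumors, 5.16 in the Cbfb(homo) tumor and 6.21, 6.62 and 5.92 in Cbfb(wt) tumors, and Mcm6 was 5.75, 6.58 and 6.99 log2 CPM in Cbfb(het) tumors, 5.07 in the Cbfb(homo) tumor and 6.61, 7.02 and 6.70 in Cbfb(wt) tumors. Both were lowest in the Cbfb(homo) tumor and highest in Cbfb(wt) 2, and the Cbfb(het) and Cbfb(wt) ranges overlapped. Over the 18 tumors Mcm2 ranged over 4.63 to 6.86, Mcm3 over 4.74 to 6.40, Mcm5 over 4.86 to 6.74 and Mcm7 over 5.43 to 6.90, and all but Mcm7 were lowest in the Cbfb(homo) tumor.

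Among the factors that load the helicase, Cdc6 was 1.93, 3.25 and 3.87 log2 CPM in Cbfb(het) tumors, 1.97 in the Cbfb(homo) tumor and 2.95, 4.37 and 3.76 in Cbfb(wt) tumors. Its lowest values were those of Cbfb(het) 10 and 14 and the Cbfb(homo) tumor, and its highest was that of Cbfb(wt) 2, so both genotype groups held wide ranges. Cdt1, the second loader, was 3.76, 4.57 and 5.40 log2 CPM in Cbfb(het) tumors, 3.23 in the Cbfb(homo) tumor and 4.62, 4.82 and 4.46 in Cbfb(wt) tumors, with the Cbfb(homo) tumor lowest and Cbfb(het) 1 highest. Pcna, the sliding clamp of the polymerases, was the most abundant replication gene in every tumor by TPM and the steadiest of that phase over the 18 tumors, at 6.76, 7.03 and 7.40 log2 CPM in Cbfb(het) tumors, 6.47 in the Cbfb(homo) tumor and 7.21, 7.10 and 7.21 in Cbfb(wt) tumors. A processed copy, Pcna-ps2, was assigned up to 11.5% of the Pcna count of a tumor, so the split of reads between the copies is uncertain. Of the nucleotide suppliers, Rrm1 was 6.03, 6.61 and 7.23 log2 CPM in Cbfb(het) tumors, 5.91 in the Cbfb(homo) tumor and 6.40, 6.61 and 6.95 in Cbfb(wt) tumors, and its partner in ribonucleotide reductase, Rrm2, was 5.10, 5.62 and 6.50 log2 CPM in Cbfb(het) tumors, 4.88 in the Cbfb(homo) tumor and 5.18, 6.0 and 6.04 in Cbfb(wt) tumors. Tyms, which makes thymidylate, was 4.13, 4.70 and 5.10 log2 CPM in Cbfb(het) tumors, 4.25 in the Cbfb(homo) tumor and 4.84, 5.56 and 4.80 in Cbfb(wt) tumors. Rrm1, Rrm2 and Tyms overlapped between Cbfb(het) and Cbfb(wt) tumors.

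Cyclins and kinases of G2 and mitosis showed their lowest levels in the same few tumors. Cdk1 was 4.36, 5.92 and 6.32 log2 CPM in Cbfb(het) tumors, 4.67 in the Cbfb(homo) tumor and 5.55, 6.24 and 5.76 in Cbfb(wt) tumors. Ccnb2 was 3.33, 4.92 and 5.46 log2 CPM in Cbfb(het) tumors, 3.85 in the Cbfb(homo) tumor and 4.58, 5.05 and 4.75 in Cbfb(wt) tumors, and Ccnb1, the other B cyclin gene, was 4.80, 5.72 and 6.51 log2 CPM in Cbfb(het) tumors, 4.51 in the Cbfb(homo) tumor and 5.83, 5.80 and 5.54 in Cbfb(wt) tumors. For Cdk1 and Ccnb2 the lowest 3 tumors were Cbfb(het) 14 and 10 and the Cbfb(homo) tumor, whereas Ccnb1 had its lowest values in the Cbfb(homo) tumor and Cbfb(het) 5. Ccnb2 supplied 31.4% (Cbfb(het) 14) to 61.6% (Cbfb(het) 5) of B cyclin TPM in Cbfb(het) tumors, 49.3% in the Cbfb(homo) tumor and 40.2% to 48.7% in Cbfb(wt) tumors. Ccna2, the cyclin A gene of S and G2 phase, spanned 2.59 log2 units over the 18 tumors, from 4.56 in Cbfb(het) 14 to 7.15 in Cbfb(wt) 2. Cdc25c, the phosphatase that frees Cdk1, was 1.81, 3.44 and 4.07 log2 CPM in Cbfb(het) tumors, 2.23 in the Cbfb(homo) tumor and 3.25, 3.69 and 3.10 in Cbfb(wt) tumors.

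The transcription factors and mitotic kinases came next. Foxm1, an activator of G2 genes, was 4.16, 4.97 and 6.70 log2 CPM in Cbfb(het) tumors, 3.88 in the Cbfb(homo) tumor and 5.28, 6.08 and 5.11 in Cbfb(wt) tumors, with Cbfb(het) 1 far above the rest of its group. Mybl2, a MuvB partner, was 3.65, 4.23 and 5.01 log2 CPM in Cbfb(het) tumors, 3.44 in the Cbfb(homo) tumor and 4.85, 4.52 and 4.23 in Cbfb(wt) tumors. Plk1, a kinase of mitotic entry, was 4.12, 4.98 and 5.57 log2 CPM in Cbfb(het) tumors, 3.53 in the Cbfb(homo) tumor and 4.62, 5.05 and 4.80 in Cbfb(wt) tumors. The spindle kinase gene Aurka and the chromosomal passenger kinase gene Aurkb were at similar TPM, with Aurkb supplying 38.9% to 55.4% of the pair in Cbfb(het) tumors, 52.8% in the Cbfb(homo) tumor and 49.0% to 56.3% in Cbfb(wt) tumors. Birc5 (survivin), a passenger subunit, was 4.04, 5.24 and 5.91 log2 CPM in Cbfb(het) tumors, 3.96 in the Cbfb(homo) tumor and 5.14, 5.92 and 5.21 in Cbfb(wt) tumors. In all 6 of these genes the Cbfb(homo) tumor was the lowest of the 18.

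The remaining genes of this phase serve the exit from mitosis, the spindle checkpoint and the handling of chromosomes. Ube2c, the ubiquitin carrier of the anaphase-promoting complex, was 4.03, 5.44 and 6.83 log2 CPM in Cbfb(het) tumors, 4.01 in the Cbfb(homo) tumor and 5.51, 5.14 and 5.37 in Cbfb(wt) tumors. Cdc20, the activator of that complex, was 4.23, 5.70 and 6.73 log2 CPM in Cbfb(het) tumors, 4.37 in the Cbfb(homo) tumor and 5.82, 5.57 and 5.27 in Cbfb(wt) tumors. In both, the 4 lowest tumors were Cbfb(het) 10, 11 and 14 and the Cbfb(homo) tumor, and the highest was Cbfb(het) 1. Bub1b, a spindle checkpoint component, was 4.63, 5.43 and 6.28 log2 CPM in Cbfb(het) tumors, 3.96 in the Cbfb(homo) tumor and 5.57, 5.97 and 5.52 in Cbfb(wt) tumors, while the checkpoint kinase genes Bub1 and Ttk ranged over 2.52 and 1.56 log2 units. Kif11, the motor that pushes spindle poles apart, was 4.47, 5.40 and 6.01 log2 CPM in Cbfb(het) tumors, 4.22 in the Cbfb(homo) tumor and 5.52, 5.56 and 5.77 in Cbfb(wt) tumors. Tpx2, a spindle assembly factor, ranged over 2.48 units. Of the kinetochore genes, Cenpf was 4.31, 4.92 and 5.48 log2 CPM in Cbfb(het) tumors, 3.93 in the Cbfb(homo) tumor and 5.25, 5.55 and 5.38 in Cbfb(wt) tumors, and Cenpe was 3.69, 4.64 and 5.93 log2 CPM in Cbfb(het) tumors, 4.02 in the Cbfb(homo) tumor and 5.0, 5.90 and 5.08 in Cbfb(wt) tumors. Kif11, Cenpf and Cenpe overlapped between Cbfb(het) and Cbfb(wt) tumors, with Cbfb(wt) 2 highest of all for Cenpf and Cbfb(het) 1 for Cenpe. Top2a was 5.99, 6.77 and 7.81 log2 CPM in Cbfb(het) tumors, 5.76 in the Cbfb(homo) tumor and 6.94, 8.08 and 7.09 in Cbfb(wt) tumors, and Mki67, the gene of the Ki-67 antigen used to count cycling cells, was 6.03, 6.81 and 7.40 log2 CPM in Cbfb(het) tumors, 6.05 in the Cbfb(homo) tumor and 7.2, 7.03 and 7.75 in Cbfb(wt) tumors. Cbfb(wt) 2 was highest for Top2a and Cbfb(wt) 3 for Mki67, so these markers ranked the Cbfb(wt) tumors differently.

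No cell cycle gene passed the test between Cbfb(het) and Cbfb(wt) tumors. The edgeR quasi-likelihood test called 0 of 18475 genes higher (0%) and 0 lower (0%), so 0 of 44 members, all with an adjusted p of 0.999. At an unadjusted p under 0.05, 0 members were higher (1.46% of all genes) and 1, Mcm4, was lower (1.91% of all genes). DESeq2 and limma-voom also called 0 members. No member had every Cbfb(het) tumor above every Cbfb(wt) tumor (0.0487% of all genes) or below (0.124%). The log2 fold change was -0.42 ± 0.19 (SE) for Mcm4 (edgeR unadjusted p = 0.039), -0.38 ± 0.19 for Tyms, -0.59 ± 0.35 for Cdc6 and -0.31 ± 0.21 for Mcm3. Among mitosis genes it was -0.44 ± 0.21 for Cenpf, -0.50 ± 0.26 for Mki67, -0.65 ± 0.36 for Cenpe and -0.60 ± 0.35 for Top2a. Among G1/S genes it was 1.72 ± 1.02 for Ccnd2, 0.75 ± 0.62 for E2f2, -0.32 ± 0.28 for E2f1, -0.28 ± 0.27 for Ccnd3 and 0.13 ± 0.27 for Ccnd1. Several of these values depended on 1 Cbfb(wt) tumor. Without Cbfb(wt) 2 the fold change was -0.22 for Mcm4, -0.095 for Tyms, -0.19 for Cdc6, -0.12 for Mcm3, -0.30 for Cenpe, -0.15 for Top2a, -0.077 for E2f1, -0.12 for Ccnd3, 0.032 for Ccnd1 and 0.43 for E2f2. Without Cbfb(wt) 3 it was -0.26 for Mki67, -0.59 for E2f1, -0.52 for Ccnd3 and -0.020 for Ccnd1, and without Cbfb(wt) 1 it was -0.18 for Ccnd3 and 0.40 for Ccnd1. Ccnd1 also stood at 0.051 without Cbfb(het) 1 and 0.080 without Cbfb(het) 6. Without the 5 tumors low in Epcam the Ccnd2 value was -0.19. Of the cell type markers, all 4 adipocyte genes (Adipoq, Plin1, Fabp4 and Lep) had positive fold changes at an unadjusted p under 0.05 and 0 passed adjustment, with summed TPM of 18.2 to 1094 in Cbfb(het) tumors and 23.8, 94.8 and 47.2 in Cbfb(wt) tumors, and 3 of the 4 were at 0 in at least 1 tumor. Among the other 7 marker lists, 1 gene, the B cell gene Cd79a, was past that unadjusted threshold, also with a positive fold change. Their part in the cell cycle values was not tested.

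By sign, 34 of 44 members had a negative fold change, against 46.8% of all genes, and their median was -0.14 beside 0.03 for all genes. Replication genes were 12 of 12 negative with a median of -0.28, mitosis genes 17 of 22 with -0.19, and G1/S genes 5 of 10 with -0.04. These genes move together within a tumor, so the counts are not independent, and a single tumor weighed on them. Without Cbfb(wt) 2, 26 members were negative and the median was -0.07. Without Cbfb(wt) 1 the count was 36 and the median -0.25. Without all 5 tumors low in Epcam, 29 were negative with a median of -0.10, and with Cbfb(het) 10 and 14 summed into 1 sample, 30 with -0.11. The variation between tumors of a group was large (common biological coefficient of variation 0.691) and 3 tumors were Cbfb(wt), so small differences were not detectable here.

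**Figure D4:**
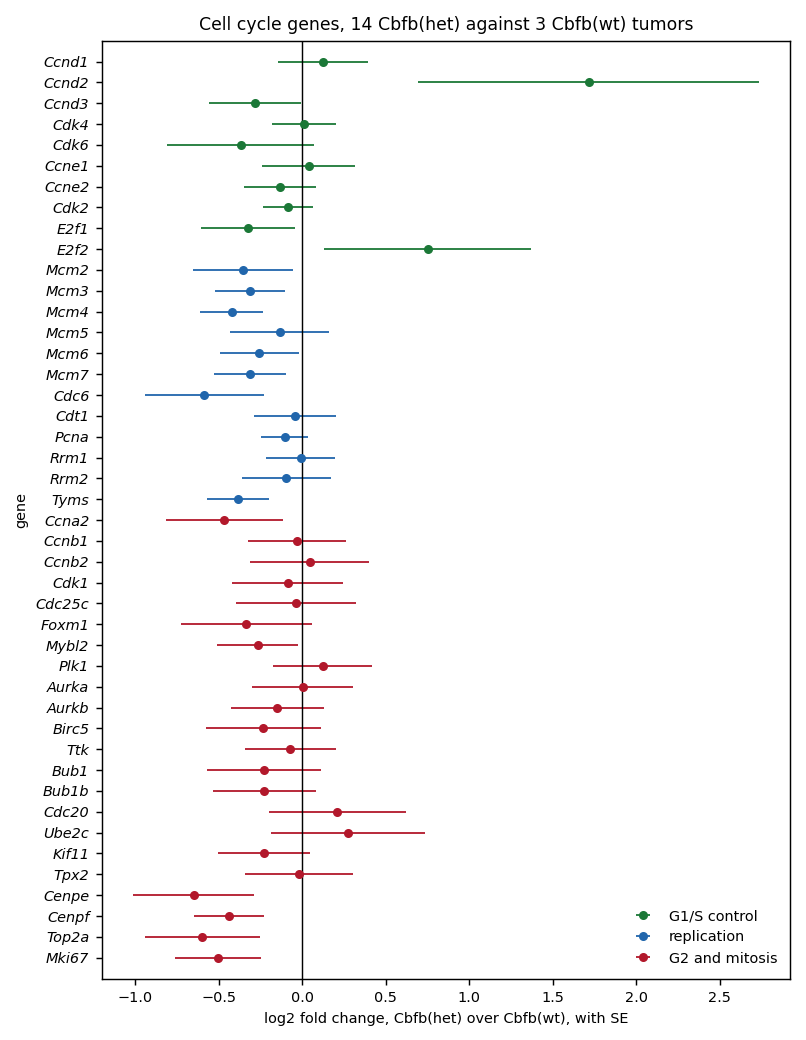
Log2 fold change of each gene in 14 Cbfb(het) over 3 Cbfb(wt) tumors (x axis) with its SE as a bar, coloured by phase; 0 of the 44 genes passed the adjusted threshold. All 12 replication genes lie left of 0, between -0.59 and -0.01, and Ccnd2 lies farthest right at 1.72 with the widest bar.

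Other genes of the same machinery did not pass this test either, with 0 of 106 called in either direction on 5 further lists. At an unadjusted p under 0.05, 0 of 106 were higher, beside 1.46% of all genes, and 4 of 106 (3.77%) were lower, beside 1.91% of all genes, namely Cdc7, Pola1, Cdkn2c and the chromosome motor gene Kif4. Of 38 further origin and fork genes, 32 were negative (median -0.23), and of 36 further mitosis genes, 27 were negative (median -0.22). All 9 checkpoint kinase and CDC25 genes were negative (median -0.30), while 16 pocket protein, E2F and DREAM genes were divided into 7 positive and 9 negative (median -0.10). Over all genes tested 46.8% were negative, with a median of 0.03. These lists were read in the same tumors as the members, so their sign counts are not independent of those. They were not counted again without Cbfb(wt) 2. The smallest p-values below 0 belonged to Cdc7, the kinase that fires origins (-0.61 ± 0.18, SE), Pola1, the catalytic subunit of the priming polymerase (-0.85 ± 0.29), and Cdkn2c (-0.84 ± 0.31). Above 0 they belonged to Lin37, a MuvB subunit (0.50 ± 0.34), Dut, which removes dUTP (0.45 ± 0.34), and Rpa3, a subunit of the single-strand binding protein (0.33 ± 0.27). The edgeR adjusted p was 0.999 for each of these 6 genes. Without Cbfb(wt) 2 the value was -0.30 for Pola1, 0.28 for Lin37 and 0.22 for Rpa3, and without Cbfb(wt) 3 it was 0.83 for Lin37.

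The 7 CDK inhibitor genes, the brakes on the G1 kinases, were 3 positive and 4 negative. Cdkn1a (p21), a p53 target, was 4.29, 7.65 and 8.51 log2 CPM in Cbfb(het) tumors, 8.41 in the Cbfb(homo) tumor and 8.28, 5.84 and 6.46 in Cbfb(wt) tumors. It had its lowest level in Cbfb(het) 12 and stood near the top of the range in the Cbfb(homo) tumor, with a fold change between Cbfb(het) and Cbfb(wt) of 0.39 ± 0.65 (SE). Cdkn2a, whose locus makes both p16 and p19Arf, was 1.34, 3.08 and 8.47 log2 CPM in Cbfb(het) tumors, 4.71 in the Cbfb(homo) tumor and 6.16, 6.92 and 1.85 in Cbfb(wt) tumors, and its fold change was -0.15 ± 1.38. It reached 5.54 or more in all 5 tumors low in Epcam, in Cbfb(het) 11 and in Cbfb(wt) 1. Cdkn2c (p18) was at most 4.74 in Cbfb(het) tumors and 3.28 in the Cbfb(homo) tumor but 5.77 in Cbfb(wt) 2, and without Cbfb(wt) 2 its fold change was 0.00034. Cdkn1c (p57) stood at -1.0 ± 0.53 and turned to 0.87 without the same tumor. Cdkn1b (p27), at -0.06 ± 0.18, Cdkn2b (p15), at 0.41 ± 0.40, and Cdkn2d (p19), at 0.13 ± 0.21, completed the family. None of the 7 passed the edgeR threshold (adjusted p = 0.999).

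Mki67 was set against each of the other 43 genes across the 18 tumors, to see which phases followed it. By a two-sided permutation test with both Pearson's r and Spearman's rho adjusted over all 18474 genes, 6 of 43 were called positive, where 1.5% of all genes were, and 0 were called negative, where 0.893% of all genes were. The 6 were 5 mitosis genes and 1 replication gene, Rrm1. Kif11 followed Mki67 most closely, with r = 0.89 (permutation p = 1e-05, the smallest that 100000 permutations can give, adjusted p = 0.00577) and rho = 0.85 (permutation adjusted p = 0.0137). Cenpf had r = 0.83 and rho = 0.84 (permutation p = 3e-05 and 6e-05, adjusted p = 0.00792 and 0.0191). Mcm5 had r = 0.79 but was not called, since its rho of 0.67 had an adjusted p of 0.064 (permutation p = 8e-05 and 0.00305). Rrm1 had r = 0.79 and rho = 0.72 (permutation p = 6e-05 and 0.00091, adjusted p = 0.00972 and 0.0425), and Bub1b had r = 0.77 and rho = 0.73 (permutation p = 0.00017 and 0.00093, adjusted p = 0.0169 and 0.0427). Cenpe and Top2a were the other 2 called genes, with r = 0.69 and 0.68 and rho = 0.77 and 0.73 (permutation adjusted p = 0.0379 and 0.0449 for r, 0.0298 and 0.0376 for rho). Without the 2 tumors farthest from the median of Mki67, Cbfb(het) 14 and the Cbfb(homo) tumor, r was 0.84 for Kif11, 0.79 for Cenpf, 0.65 for Mcm5, 0.66 for Rrm1, 0.66 for Bub1b, 0.59 for Cenpe and 0.53 for Top2a.

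The 5 genes with the lowest r were all of the G1/S phase, but that phase was divided. The other phases also varied. In them r ran from 0.28 (Tyms) to 0.79 (Mcm5) for replication and from 0.34 (Foxm1) to 0.89 (Kif11) for mitosis. Among the other G1/S genes, r was 0.19 for Cdk4, 0.42 for Ccnd1, 0.59 for E2f2 and 0.69 for both Cdk2 and Ccne2. None of them was called, with a permutation adjusted p for rho of 0.0704 for Cdk2 and 0.056 for Ccne2. On log2(TPM + 1) Cdk2 and Ccne2 were called. Ccnd2 had a negative correlation, with r = -0.59 and rho = -0.54 (permutation p = 0.0105 and 0.021), and did not pass adjustment (adjusted p = 0.0978 and 0.134). Without the 2 farthest tumors its r was -0.45. Ccnd3 had r = -0.27 and rho = -0.40, E2f1 had r = -0.13 and rho = -0.24, Ccne1 had r = -0.08 and rho = -0.01, and Cdk6 had r = 0.02 and rho = 0.10 (permutation p = 0.272, 0.614, 0.748 and 0.952 for r in that order and 0.102, 0.341, 0.987 and 0.694 for rho, adjusted p of at least 0.293). Of these 4, the r of Ccnd3, E2f1 and Ccne1 was positive on log2(TPM + 1). The genes are read in the same libraries with the same scaling factors, which all pairs share. On the TPM scale 25 of 43 were called, where 6.9% of all genes were. Among the 13 tumors not low in Epcam 6 were called, where 0.595% of all genes were called positive. Those 6 members were Bub1, Bub1b, Cenpe, Cenpf, Kif11 and Top2a, with r of 0.85 for Kif11 and 0.95 for Cenpf. Within the 14 Cbfb(het) tumors 0 were called, where 0.124% of all genes were called positive. Kif11 there had r = 0.90 and rho = 0.87 (permutation adjusted p = 0.0154 and 0.0528). Leaving out the Cbfb(homo) tumor, or averaging Cbfb(het) 10 and 14, left 2 called, Kif11 and Cenpf. In these 2 settings 0.752% and 0.195% of all genes were called positive, so the share of all genes fell as well.

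In 27 of 44 members the lowest of the 18 values belonged to the single Cbfb(homo) tumor, 3 of G1/S control, 9 of replication and 15 of G2 and mitosis, where 4.94% of all genes were lowest in it. It was highest in 0 members, against 4.41% of all genes. This is a description of 1 tumor without a test. Set against the mean of the 3 Cbfb(wt) tumors, 30 members (68.2%) were over 2-fold lower, where 6.37% of all genes were, and 1 was over 2-fold higher, where 15% of all genes were. The 30 were 21 of 22 mitosis genes, 7 of 12 replication genes and 2 of 10 G1/S genes, Cdk6 and E2f1. The median difference from Cbfb(wt) was -1.29 on the log2 scale for mitosis, -1.21 for replication and -0.48 for G1/S genes, beside 0.01 for all genes.

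Among the genes in which it was lowest, the Cbfb(homo) tumor lay farthest below the Cbfb(wt) mean for Bub1b (-1.73), Mcm6 (-1.70), Foxm1 (-1.61), Top2a (-1.61) and Bub1 (-1.52). Mcm6 in it was 5.07 log2 CPM, against at least 5.75 in the other 17 tumors, and Mcm3 was 4.74 against at least 5.40. Kif11, at 4.22, and Mcm5, at 4.86, were nearer to the next tumor, Cbfb(het) 10, at 4.47 and 4.90. Ccnb2, Cdk1, Cdc20, Cdc25c and Cenpe were lower still in Cbfb(het) 14 than in the Cbfb(homo) tumor. The G1 kinase Cdk4 was 7.55 in the Cbfb(homo) tumor and averaged 7.55 in Cbfb(wt) tumors, and Cdk2 was 5.17 and 5.33. Ccnd2 was the member over 2-fold higher, by 2.15. Of the 7 CDK inhibitors, 1 was over 2-fold higher, Cdkn1a by 1.55, near the share of all genes (15%). In 2 the level was over 2-fold lower, Cdkn1c (-1.35) and Cdkn2c (-1.33), where 6.37% of all genes were. Of the other further lists, 4 of 9 checkpoint kinase and CDC25 genes (Chek1, Chek2, Cdc25b and Clspn), 26 of 36 mitosis genes and 14 of 38 origin and fork genes were over 2-fold lower, among them the helicase cofactor gene Cdc45 (-1.93). By contrast, 1 of 16 pocket protein, E2F and DREAM genes was, near the share of all genes (6.37%).

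**Figure D5:**
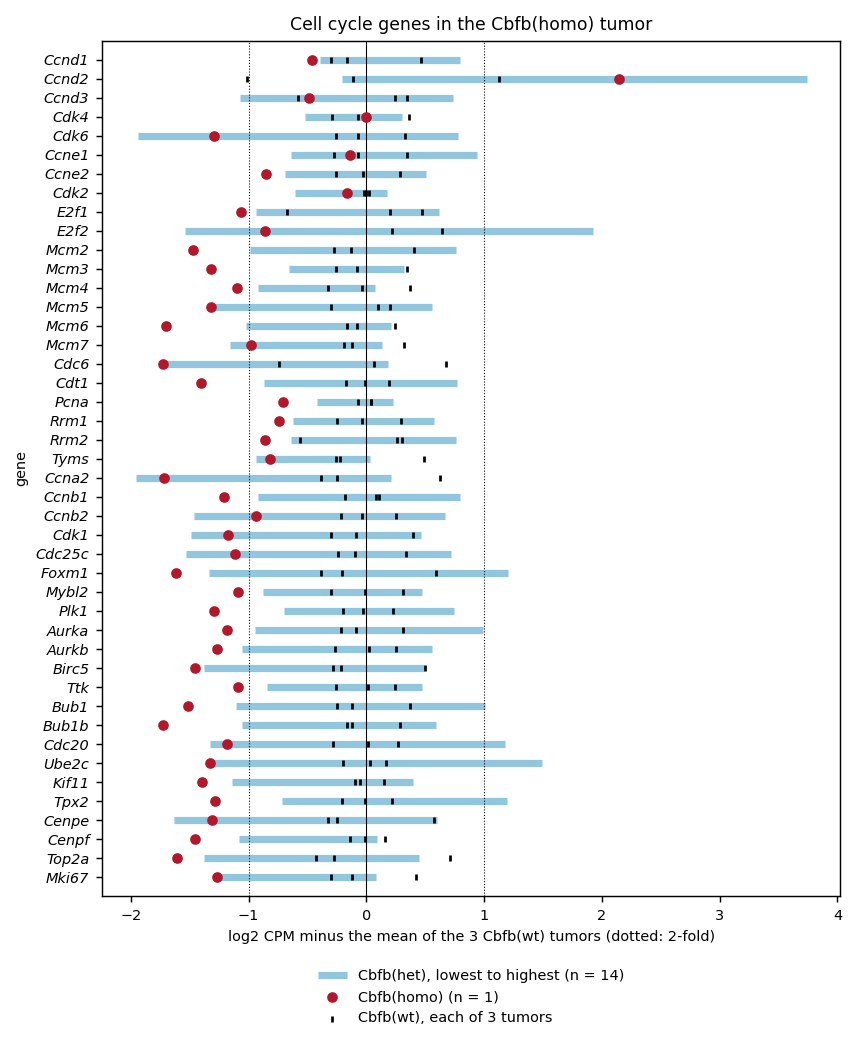
Each gene's log2 CPM minus the mean of the 3 Cbfb(wt) tumors (x axis): the bar spans the lowest to the highest of 14 Cbfb(het) tumors, the circle is the Cbfb(homo) tumor and the ticks are the 3 Cbfb(wt) tumors. The circle lies left of the 2-fold line for 30 of 44 genes and right of it for Ccnd2 alone, at 2.15.

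The low levels in the Cbfb(homo) tumor stood beside high RNA of basal markers. By summed TPM, the other marker lists lay within the range of the other tumors. The 4 basal markers summed to 22397 TPM in it, against 220.3 to 11207 in Cbfb(het) tumors and 1295 to 8377 in Cbfb(wt) tumors, the highest of the 18. The 9 epithelial markers summed to 4301 TPM, rank 16 from the lowest, of which Krt8, Krt18 and Krt19 held 3314, and by mean log2 CPM the list ranked 7. The 10 leukocyte markers summed to 3404, rank 15, of which S100a8 alone held 3159. By mean log2 CPM of the 9 that passed the filter on low counts, this list ranked 10. The 7 fibroblast markers summed to 1985, rank 13, and the 4 endothelial markers to 105, rank 17. By mean log2 CPM these lists ranked 13 and 18, so the endothelial mean was the highest of the 18 tumors. Of all markers, Plin1, an adipocyte gene, was at 0 in it, as it also was in Cbfb(wt) 1 and 2. Their part in the low cell cycle levels was not tested, and the genotype and this 1 tumor cannot be told apart. Leaving out a Cbfb(wt) tumor from the mean gave 26 to 31 members over 2-fold lower, and using the average of the 14 Cbfb(het) tumors in place of Cbfb(wt) gave 20. On log2(TPM + 1), which is not scaled between tumors, 16 members were lowest in the Cbfb(homo) tumor. Milk protein genes summed to 136041 TPM in Cbfb(het) 4 and 117352 in Cbfb(het) 2, against 2442 in the Cbfb(homo) tumor, and their part in that count was not tested. Leaving out Cbfb(het) 10 and 14, or all 5 tumors low in Epcam, gave 37 members lowest in it. The share of all genes was not counted under any of these alternatives. With fewer tumors any gene is lowest in a given tumor more often, so 37 cannot be set against the 4.94% over 18 tumors.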

How the data were processed

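Bulk RNA from 18 mammary tumors was extracted with Trizol and made into libraries with a TruSeq stranded mRNA kit, per the labels' protocols. STAR 2.7.0f, RSEM 1.3.1 and mm10 are named in the submitters' processing notes. The sources used here give neither the annotation release nor a strand setting, so reads of a gene and an antisense partner may not be told apart. The deposited gene tables hold the authors' expected counts and TPM values. Between 6.2% and 7.19% of a tumor's expected counts, zeros included, were not whole, and they were rounded. TPM carries no scaling between tumors.

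Fits used R 4.3.3 with edgeR 4.0.16 (filterByExpr, TMM, robust quasi-likelihood test, Benjamini-Hochberg over all genes, threshold 0.05) on 14 Cbfb(het) and 3 Cbfb(wt) tumors, with limma 3.58.1 and DESeq2 1.42.0 as alternatives, and were tested on simulated data. Log2 CPM used TMM factors of all 18 tumors and a prior count of 2. Tumor numbers within a genotype follow the order of deposit. Correlations used 100000 permutations and were adjusted over all genes, wider than the adjustment over the members that was first laid down. Named fold changes are those of Mki67, Top2a, the D cyclins, the 4 smallest p-values of each phase, the 3 smallest in each direction of the further lists, the CDK inhibitors and Cbfb. Named correlations are the 5 highest and the 5 lowest, beside those called, the other G1/S genes and the lowest of replication and of mitosis. Gene positions came from GENCODE M21. Members and lists were chosen with earlier results of these data known.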

Additional observations from a re-analysis of the deposited data

How the results depend on the processing

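No paired analysis was possible because every tumor carries the same repeat number in the labels and the tumor numbers used here only name samples. The count of members called between Cbfb(het) and Cbfb(wt) tumors stayed at 0 of 44 under other scaling factors, no filter on low counts, a fit on all 18 tumors, DESeq2, limma-voom, the summing of Cbfb(het) 10 and 14, each tumor left out in turn and the leaving out of the tumors low in Epcam. Members with a negative fold change numbered 26 to 37 when each tumor was left out in turn. Of all genes tested, 1 was called without the filter on low counts and 1 in the fit on all 18 tumors. The alternative without tumors low in Epcam, all of those for the negative count, all of those for the count of members lowest in the Cbfb(homo) tumor, and the leaving out of Cbfb(wt) tumors from the mean it was set against were chosen after seeing the data.

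Over the tumors left out in turn, the log2 fold change ran from -0.020 to 0.40 for Ccnd1, from -0.00684 to 1.45 for Cdkn1a, from -0.17 to 0.081 for Cdkn1b, from -1.47 to 0.87 for Cdkn1c, from -0.83 to 0.65 for Cdkn2a, from -1.12 to 0.00034 for Cdkn2c and from -0.030 to 0.30 for Cdkn2d. Sign changes came without Cbfb(wt) 3 for Ccnd1, Cdkn1b and Cdkn2d and without Cbfb(wt) 2 for the other 4. Without the tumors low in Epcam it was -0.018 for Cbfb, -0.19 for Ccnd2 and 0.60 for Cdkn1c. The count of members correlated with Mki67 was 25 on log2(TPM + 1), 0 in the 14 Cbfb(het) tumors, 2 with Cbfb(het) 10 and 14 averaged and 2 without the Cbfb(homo) tumor. Of all genes, 6.9%, 0.124%, 0.195% and 0.752% were called positive in that order. The r with Mki67 became 0.052 for Ccnd3, 0.19 for E2f1 and 0.22 for Ccne1 on log2(TPM + 1), and 0.25 for E2f1 and 0.31 for Ccne1 without the tumors low in Epcam. It became 0.013 for Ccne1 with Cbfb(het) 10 and 14 averaged, -0.24 for Cdk6 in the 14 Cbfb(het) tumors and -0.10 for Cdk6 without the Cbfb(homo) tumor. Members lowest in the Cbfb(homo) tumor numbered 16 on log2(TPM + 1), where the share of all genes was not counted. The cause of these changes was not tested. Among the single-gene values under all alternatives, 833 kept their direction and side of the threshold or moved by less than 1 SD, 18 changed sign, 10 lost and 1 gained a call, and 10 differences of the Cbfb(homo) tumor moved by more than 1 SD.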
